A study of Mus musculus with 2 samples.

Results

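The nuclear genes of the mitochondrial respiratory chain were examined for SRCAP at their promoters. They were taken from GENCODE mouse release M21 as the nuclear protein-coding genes whose symbols start with Nduf, Uqcr, Sdh and a letter from a to d, Cox and a digit, or Atp5, which gave 107 genes of the 21938 nuclear protein-coding genes. The 107 genes carry 106 symbols, because Atp5o names a pair of overlapping gene records. A gene was called bound in a replicate when a peak of that replicate overlapped the stretch from 1000 bp upstream to 500 bp downstream of any of its transcription start sites (TSS). The rule uses gene symbols only.

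SRCAP is the catalytic subunit of the remodeling complex that replaces histone H2A by the variant H2A.Z in nucleosomes, mostly at promoters and enhancers. The SYAT line is a derivative of CGR8 mouse embryonic stem cells in which both Srcap alleles encode SRCAP fused to YPet, a yellow fluorescent protein, and to a degron controlled by auxin, and it stably expresses the auxin receptor OsTir1. Both samples were SYAT cells of a single group, titled NT, kept routinely with Auxinole, at 200 nM by the labels and at the same figure in µM by the methods of the study, which blocks the auxin response and so limits basal loss of SRCAP, and moved to serum and LIF medium before the experiment. SRCAP was mapped by CUT&Tag, in which an antibody, here against GFP, brings a transposase to the tagged protein, with 200000 cells per sample, a spike-in of Drosophila nuclei and, in the same incubation, an antibody against the Drosophila histone H2Av. There were 2 replicates, numbered 1 and 2 in the labels, and the study states for its experiments in general that replicates were independent cultures. Auxin-treated cells and control libraries were not analysed here, so no comparison between conditions was possible, and peak lists without expression data do not allow the cell type to be checked against marker levels.

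Replicate 2 had 12958 peaks and replicate 1 had 6158, a ratio of 2.1. Each peak carries a whole-number score from the authors' peak caller, with a minimum of 13 in both lists, and a higher score stands for a lower q-value. Read numbers are not part of the lists, so depth is unknown, and scores were ranked only within a list, as the percent of its peaks with a lower score. A gene without a peak was below the threshold of that library, which does not show that SRCAP was absent.

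The respiratory chain passes electrons from NADH and succinate to oxygen and uses the resulting proton gradient to make ATP. Complex I (NADH dehydrogenase, Nduf genes) and complex II (succinate dehydrogenase, Sdh genes) feed electrons to ubiquinone, complex III (Uqcr genes) passes them to cytochrome c, complex IV (cytochrome c oxidase, Cox genes) reduces oxygen, and complex V (Atp5 genes) is the ATP synthase. Most subunits are encoded in the nucleus and used in nearly every cell, many of their promoters are known targets of the transcription factors NRF1, GABPA (an ETS factor) and YY1, and a few subunits have paralogs used in particular tissues such as muscle or testis.

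Some promoter sequences of genes bound in both replicates are shown before the values. Of the 10 highest-ranked genes bound in both replicates, Atp5g1, Ndufs8, Cox18 and Cox7a2l had 200 bases of upstream sequence that lay whole inside the peak of each replicate and held no TSS of another gene. The stretches of Atp5g1 and Ndufs8 are printed because they also held CCAAT, a choice made after the sequences were seen. Atp5g1 encodes a copy of the c subunit of the ATP synthase rotor, and Ndufs8 an iron-sulfur subunit of complex I. The 200 bases before the TSS of the principal transcript are given 5′ to 3′ on the strand of the gene, read from the GRCm38 assembly, which is mm10, with each CCAAT or its complement ATTGG in capitals. CCAAT is the core of the site of NFY.
Atp5g1, chr11:96075671-96075870, minus strand: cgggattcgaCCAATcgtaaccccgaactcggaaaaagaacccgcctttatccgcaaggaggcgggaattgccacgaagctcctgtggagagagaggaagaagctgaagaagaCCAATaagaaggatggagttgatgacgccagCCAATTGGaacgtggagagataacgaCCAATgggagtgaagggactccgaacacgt
Ndufs8, chr19:3912775-3912974, minus strand: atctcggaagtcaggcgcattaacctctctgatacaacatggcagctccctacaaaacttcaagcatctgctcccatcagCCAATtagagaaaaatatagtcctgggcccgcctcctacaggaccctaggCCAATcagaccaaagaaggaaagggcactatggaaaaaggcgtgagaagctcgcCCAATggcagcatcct
The Atp5g1 stretch holds 5 such matches, of which the pair at -56 and -53 overlap, and the Ndufs8 stretch holds 3, at -120, -70 and -16, counted back from -1 at the base before the TSS. CCAAT did not mark bound promoters alone, since Atp5b, the catalytic beta subunit, held 5 matches between -188 and -41 and had no peak.

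The NRF1 motif was also shown where it occurs in the leading genes, because NRF1 is a known regulator of this gene group. The first 3 genes by rank whose promoter held it were Ndufa11, an accessory subunit of complex I, Cox18, an insertase needed for complex IV assembly, and Ndufaf5, an assembly factor of complex I. For comparison, the sites of Cox6a1, a ubiquitous subunit of complex IV that had no peak in either replicate, are printed as well. Capitals mark the motif, GCGCA, any base, then GCGC, on either strand, with up to 8 flanking bases.
Ndufa11, chr17:56717694-56717719, plus strand: tgcactgcGCGCATGCGCgcacgcct
Cox18, chr5:90223981-90224006, minus strand: tcgggttcGCGCATGCGCgcaacctc
Ndufaf5, chr2:140170654-140170679, plus strand: tcccgttgGCGCATGCGCctaataga
Cox6a1, chr5:115349103-115349128, minus strand: ggaacgggGCGCATGCGCgctctcgc
Cox6a1, chr5:115349058-115349083, minus strand: gataaagtGCGCAGGCGCtggagttc
The motif begins at -65 in Ndufa11 and, with the TSS as base 1, at 4 in Cox18 and at 14 in Ndufaf5. The Cox18 site lay inside the peaks of both replicates, while the Ndufaf5 site lay outside both peaks and the Ndufa11 motif past the end of both. In Cox6a1 it begins at -139 and -94, so the same letters stood in promoters with and without a called peak.

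The replicates gave different pictures of this gene group. In replicate 1, 16 of 107 genes were bound, 15% (95% Wilson interval 9.42 to 22.9%), against 15.7% of all nuclear protein-coding genes. In replicate 2, 55 of 107 were bound, 51.4% (42 to 60.7%), against 30.4% of all coding genes. In both replicates, 14 were bound, 13.1% (7.96 to 20.8%), against 12% of all coding genes. In at least 1 replicate, 57 were bound, 53.3%, against 34%. The share in replicate 1 and the share in both were thus near the background, while the share in replicate 2 was 1.69 times the background. The mean of both replicates was 33.2% ± 25.8 (SD, n = 2), against 23% ± 10.4 for all coding genes. The intervals cover counting error only and treat genes as independent, and no gene list was tested against other genes.

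**Figure D1:**
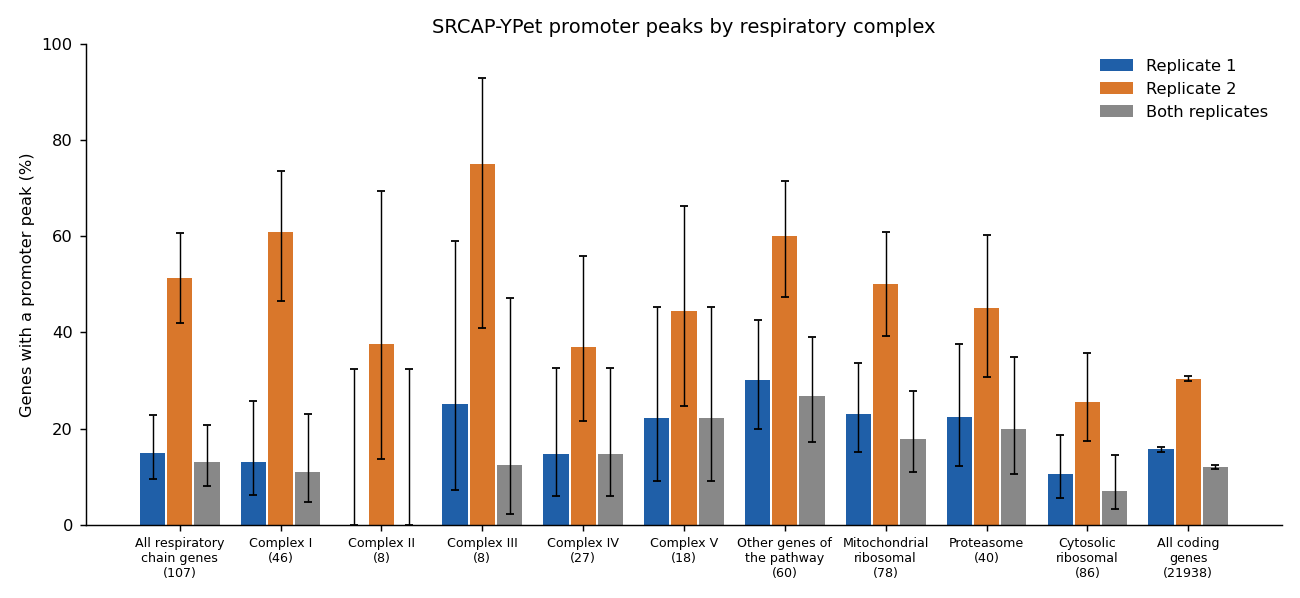
Percent of genes with a promoter peak in replicate 1, replicate 2 and both replicates, for the respiratory chain genes, each complex, related gene lists and all coding genes (number of genes in parentheses), with bars from 0 and 95% Wilson intervals as error bars. The respiratory chain genes sit at 15% in replicate 1, next to 15.7% for all coding genes, and at 51.4% in replicate 2, above 30.4%.

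The share above the background in replicate 2 was also present at equal list length. When replicate 2 was reduced to its 6158 strongest peaks, the length of replicate 1, 35 of 107 genes were bound, 32.7%, against 19.2% of all coding genes, a ratio of 1.71. In replicate 1 the same number of peaks gave a ratio of 0.952. Among the 1000 strongest peaks the genes lay below the background in both lists, with 1.87% against 3.31% in replicate 1 and 2.8% against 3.71% in replicate 2. At 3000 peaks the genes reached 7.48% against 9.16% in replicate 1, and 15.9% against 10.3% in replicate 2. Whether the libraries differed in depth is unknown, so depth and replicate cannot be told apart.

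**Figure D2:**
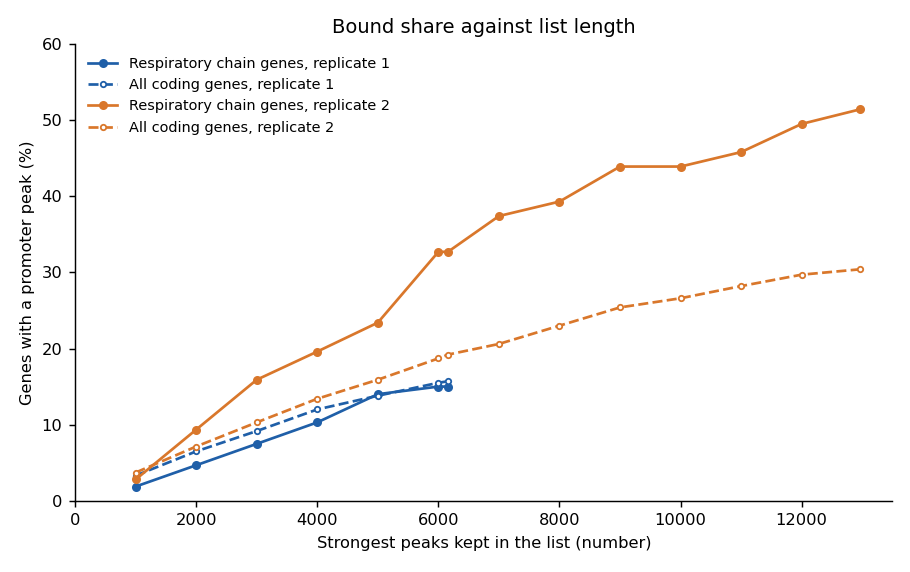
Percent of genes with a promoter peak (vertical axis) against the number of strongest peaks kept in a list (horizontal axis), for the respiratory chain genes (solid lines) and all coding genes (dashed lines) in replicates 1 and 2. At 6158 peaks the solid line of replicate 2 reaches 32.7% and that of replicate 1 reaches 15%, while the dashed lines lie at 19.2% and 15.7%.

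Of the 107 genes, 14 were bound in both replicates, 2 in replicate 1 only, 41 in replicate 2 only and 50 in neither. Of all 21938 coding genes, 2643 were bound in both, 802 in replicate 1 only, 4017 in replicate 2 only and 14476 in neither. In 13 of the 14 respiratory chain genes bound in both, the peaks of both replicates overlapped, a count not made for all coding genes. Cox11, which encodes a copper chaperone of complex IV, was the exception, with a peak of score 14 centred 136 bp upstream of the TSS in replicate 1 and a separate peak of score 23 centred 365 bp downstream in replicate 2. The peak in replicate 1 was closer to a TSS of the divergent gene Stxbp4, at 25 bp. Genes bound in both had a median score of 33 in replicate 1 and 66 in replicate 2. For all coding genes bound in both, the medians were 39 and 59. The genes bound in replicate 2 only had a median score of 38 there, against 37 for all coding genes of that kind. Scores of at least 50 were found at 4 of 16 bound genes in replicate 1, 25%, and at 21 of 55 in replicate 2, 38.2%, against 26.8% and 43% of all bound coding genes. The median peak at a respiratory chain gene ranked above 51.2% of the list in replicate 1 and 58.5% in replicate 2, and the median promoter peak of all coding genes above 60.4% and 62.6%.

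**Figure D3:**
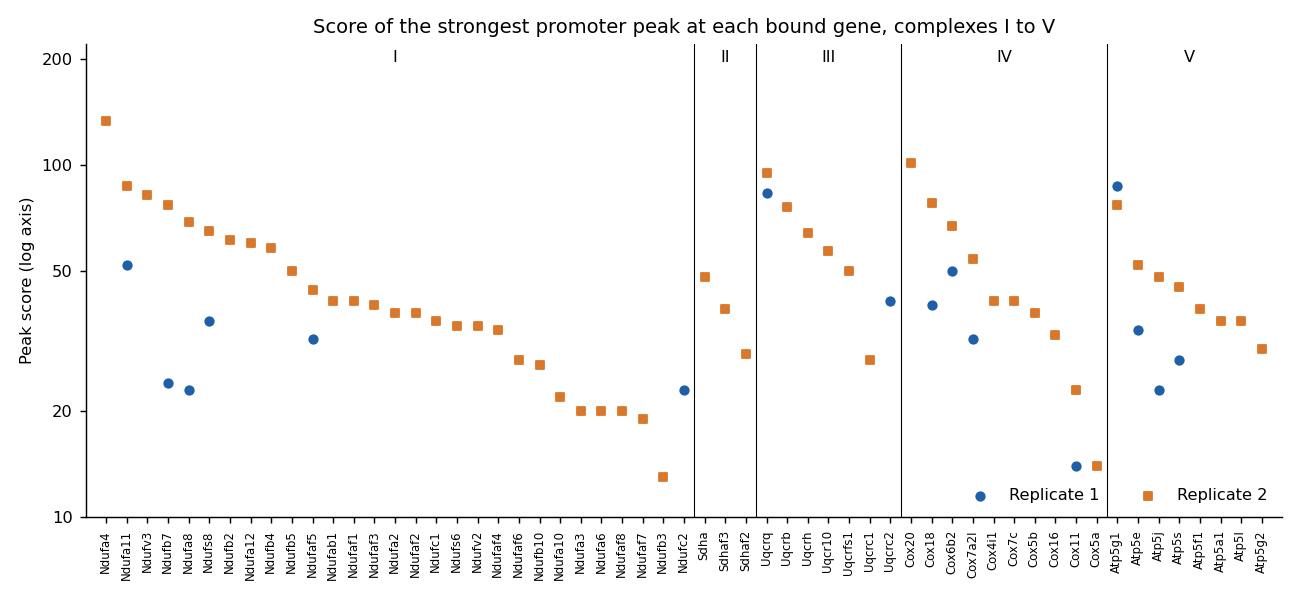
Score of the strongest promoter peak (log axis, no unit) at each of the 57 genes bound in replicate 1 (circles) or replicate 2 (squares), grouped by complexes I to V and sorted by the score in replicate 2. Most genes carry a square without a circle, and the highest scores are 133 at Ndufa4 in replicate 2 and 87 at Atp5g1 in replicate 1.

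Uqcrq, a small subunit of complex III, led the genes bound in both replicates by the lower of its ranks. Its peak spanned chr11:53430972-53431484 in replicate 1, with a score of 83, above 94.2% of the list, and chr11:53430921-53431318 in replicate 2, with a score of 95, above 93.4%. The midpoints lay upstream of the gene and closer to a TSS of the divergent gene Gdf9, at 205 and 96 bp, than to Uqcrq, at 397 and 288 bp, so the peak cannot be given to Uqcrq alone.

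Atp5g1 followed, with scores of 87 in replicate 1 (chr11:96075589-96076069, above 94.9% of the list) and 77 in replicate 2 (chr11:96075589-96076366, above 88.1%). Both peaks started at the same base. Their midpoints lay 159 and 307 bp upstream of the nearest TSS, with no other coding TSS within 2000 bp. The other genes for the identical c subunit differed from it, since Atp5g2 had a peak in replicate 2 only (score 30) and Atp5g3 had none.

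Ndufa11 had scores of 52 and 87, but both midpoints lay closer to a TSS of the divergent gene Vmac than to its own. Cox6b2, the testis paralog of a complex IV subunit, had scores of 50 and 67, above 79.3% and 83.7% of the lists. In replicate 1 it was the single respiratory chain gene with more than 1 peak, and no TSS of another coding gene lay within 2000 bp. Its ubiquitous counterpart Cox6b1 had no peak, and the nearest to any of its TSSs lay 23899 bp away in replicate 1 and 34002 bp away in replicate 2.

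Cox18 had scores of 40 and 78, with midpoints 4 bp downstream of a TSS in replicate 1 and 51 bp upstream in replicate 2. Ndufs8 had scores of 36 and 65 and the most exact placing of these genes, with midpoints 1 and 0 bp from a TSS, in an untranslated exon (chr19:3912493-3913054 and chr19:3912493-3913044). Atp5e, the epsilon subunit of ATP synthase, had 34 and 52, and Cox7a2l, which takes part in joining complexes III and IV, had 32 and 54. At these 4 genes no TSS of another coding gene lay within 2000 bp of the midpoints. Ndufaf5 had 32 and 44, with Esf1 as divergent partner, and Atp5s, known as coupling factor B, had 28 and 45.

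The other genes bound in both replicates ranked lower in replicate 1. Ndufa8 had scores of 23 and 69, Ndufb7 had 24 and 77, and Atp5j, which shares its promoter with Gabpa, had 23 and 48. Ndufa8 and Ndufb7 encode accessory subunits of complex I, and Atp5j encodes coupling factor 6 of ATP synthase.

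Only Uqcrc2 and Ndufc2 were bound in replicate 1 and not in replicate 2. Uqcrc2, a large matrix-side subunit of complex III, had a score of 41, above 68% of the list, with the midpoint 11 bp from a TSS. Ndufc2, a complex I subunit, had a score of 23 with the midpoint in an intron, 449 bp downstream. In replicate 2 the nearest peak was 26003 bp from Uqcrc2 and 28064 bp from Ndufc2. Among the 41 genes bound in replicate 2 only, the highest scores were 133 at Ndufa4, 101 at Cox20, 82 at Ndufv3, 76 at Uqcrb and 64 at Uqcrh. The score of Ndufa4 was the highest of all 107 genes and above 97.4% of the list, yet the nearest replicate 1 peak lay 157980 bp away. Ndufa4 was long counted with complex I and is now placed in complex IV, and its peak was centred 94 bp upstream of it and 218 bp from a TSS of the divergent gene Phf14. High rank in replicate 2 therefore did not go with a peak in replicate 1 at each gene.

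Split by complex, the shares in replicate 2 ran from 37% to 75%. Complex III had 6 of 8 genes bound (75%, 40.9 to 92.9%), complex I 28 of 46 (60.9%, 46.5 to 73.6%), complex V 8 of 18 (44.4%, 24.6 to 66.3%), complex II 3 of 8 (37.5%, 13.7 to 69.4%) and complex IV 10 of 27 (37%, 21.5 to 55.8%). Against the 30.4% of all coding genes, the intervals of complexes I and III lay above the background and those of complexes II, IV and V included it. The intervals of neighbours in this order overlap, so the order of the complexes is not settled by these counts. In replicate 1, bound genes numbered 2 of 8 in complex III (25%), 4 of 18 in complex V (22.2%), 4 of 27 in complex IV (14.8%), 6 of 46 in complex I (13%) and 0 of 8 in complex II, which allows a share of up to 32.4% by the Wilson interval. All 5 intervals included the 15.7% of all coding genes. The shares by complex include assembly factors and tissue-restricted paralogs. For the other subunits alone, replicate 2 gave 75% in complex III (6 of 8) and 54.1% in complex I (20 of 37). It gave 45.5% in complex IV (5 of 11), 41.2% in complex V (7 of 17) and 25% in complex II (1 of 4).

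The core subunits of complex I bind flavin or iron-sulfur clusters or frame the quinone site. Of these, Ndufs8 was bound in both replicates and Ndufv2 in replicate 2 (score 35), while Ndufs1, Ndufs3, Ndufs7 and Ndufv1 had none. Over all complexes, 1 of 14 catalytic or electron-carrying core subunits was bound in replicate 1 (7.14%, 1.27 to 31.5%) and 5 of 14 in replicate 2 (35.7%, 16.3 to 61.2%), intervals that include the 15.7% and 30.4% of all coding genes. Those in replicate 2 were Ndufs8, Ndufv2, Sdha, the flavoprotein of succinate dehydrogenase (score 48), Uqcrfs1, the Rieske iron-sulfur protein (score 50), and Atp5a1, the alpha subunit of ATP synthase (score 36). Sdhb, Sdhc, Sdhd and the catalytic beta subunit Atp5b had no peak in either list.

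The accessory subunits of complex I surround this core. Of the genes named Ndufa and a number, 8 of 14 were bound in replicate 2 (57.1%, 32.6 to 78.6%, against 30.4% of all coding genes), namely Ndufa8 and Ndufa11, bound in both, and Ndufa2, Ndufa3, Ndufa4, Ndufa6, Ndufa10 and Ndufa12. Ndufa1, Ndufa5, Ndufa7, Ndufa9, Ndufa13 and the hypoxia-associated paralog Ndufa4l2 had no peak. Of the Ndufb genes, 6 of 10 were bound in replicate 2 (60%, 31.3 to 83.2%), namely Ndufb7, bound in both, and Ndufb2, Ndufb3, Ndufb4, Ndufb5 and Ndufb10. Ndufb6, Ndufb8, Ndufb9 and Ndufb11 had no peak. Ndufab1, the mitochondrial acyl carrier protein, Ndufc1, Ndufs6 and Ndufv3 had a peak in replicate 2 only, and Ndufs4 and Ndufs5 had none.

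All 8 Ndufaf genes, which encode assembly factors of complex I, had a peak in replicate 2 (100%, 67.6 to 100%), against 30.4% of all coding genes. Their scores there ranged from 19 at Ndufaf7 to 44 at Ndufaf5, so each was of low or middle rank. The peaks of Ndufaf2, Ndufaf5, Ndufaf7 and Ndufaf8 also overlapped the promoter window of the divergent genes Ercc8, Esf1, Cebpz and Tepsin, respectively. Of all coding genes with a divergent partner, 55.8% were bound in replicate 2. In replicate 1 only Ndufaf5 was bound, 1 of 8 (12.5%, 2.24 to 47.1%), near the 15.7% of all coding genes. Assembly factors and other non-subunits of all complexes were bound in 15 of 22 cases in replicate 2 (68.2%, 47.3 to 83.6%) and 4 of 22 in replicate 1 (18.2%), against 39 of 77 (50.6%, 39.7 to 61.5%) and 11 of 77 (14.3%) for the subunits without tissue-restricted paralogs. The intervals of both kinds overlap in each replicate, and in replicate 1 both shares were near the background.

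In complex II, Sdha and the assembly factors Sdhaf2 and Sdhaf3 had a peak in replicate 2, with scores of 48, 29 and 39, and Sdhaf1 and Sdhaf4 had none. In complex III, Uqcr10 (score 57), Uqcrb, Uqcrc1 (score 28), Uqcrfs1 and Uqcrh were bound in replicate 2 only, and Uqcr11 was the gene without a peak in either list. The peaks of Uqcr10, Uqcrb and Uqcrh also overlapped the promoter window of Zmat5, Gm10767 and Lrrc41, respectively.

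In complex IV, the ubiquitous subunits Cox4i1 (score 41), Cox5a (14), Cox5b (38) and Cox7c (41) had a peak in replicate 2 only, as did the assembly factors Cox16 (33) and Cox20. Cox6a1, Cox6b1, Cox6c, Cox7a2, Cox7b and Cox8a had no peak, nor did Cox10 and Cox15, which act in heme A synthesis, Cox14, or Cox17 and Cox19, which act in copper delivery. Of the 8 tissue-restricted paralogs, Cox6b2 was bound in both replicates, and Cox4i2, Cox6a2, Cox7a1, Cox7b2, Cox8b, Cox8c and Ndufa4l2 were bound in neither. That made 1 of 8 in each replicate (12.5%, 2.24 to 47.1%), an interval that includes both the 15.7% and the 30.4% of all coding genes in replicates 1 and 2.

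In complex V, Atp5a1, Atp5f1 (score 39), Atp5g2 and Atp5l (score 36) were bound in replicate 2 only. Besides Atp5b and Atp5g3, no peak was found at Atp5c1 and Atp5d, subunits of the catalytic head, or at Atp5h, Atp5j2, Atp5k, Atp5mpl and both records of Atp5o. In replicate 1, 1 of the 91 genes without a promoter peak had a peak within 2000 bp of a TSS (Ndufb10, at 1487 bp).

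Peaks lay close to the TSS. The midpoint of the strongest peak was within 200 bp of a TSS of the gene at 12 of 16 bound genes in replicate 1 (75%) and 43 of 55 in replicate 2 (78.2%), while all bound coding genes gave 64.6% and 65.2%. The median distance was 78.5 bp and 87 bp, against 135 and 136 bp. Measured to the TSSs of principal transcripts only, the medians were 147.5 and 147 bp, against 198 and 200 bp for all bound coding genes. For genes bound in both, midpoints within 200 bp numbered 8 of 14 in replicate 2 (57.1%), against 67.3% of such coding genes. In replicate 1 they numbered 11 of 14 (78.6%), against 65.7%. Genes bound in replicate 2 only had 35 of 41 there (85.4%), against 63.8%. Over all bound genes, the midpoint was downstream at 8 and upstream at 8 genes in replicate 1. In replicate 2 it was downstream at 29 and upstream at 24, so neither side prevailed clearly. By annotation, 18 of 55 midpoints in replicate 2 lay upstream of the gene, 12 in untranslated exons, 9 in coding exons, 5 in other exons and 11 in introns. In replicate 1 the counts were 5, 5, 3, 0 and 3 of 16. Peaks of all bound coding genes were not sorted by annotation.

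**Figure D4:**
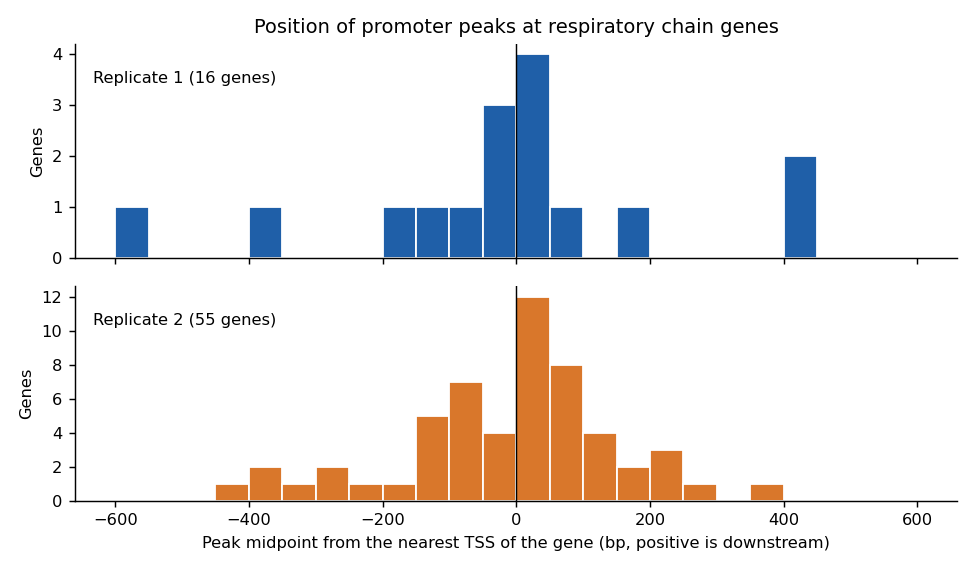
Number of respiratory chain genes (vertical axis) by the distance in bp of the midpoint of their strongest peak from the nearest TSS (horizontal axis, bins of 50 bp, positive is downstream) in replicate 1 (16 genes) and replicate 2 (55 genes). The bars gather within 200 bp of the TSS, with 75% and 78.2% of the genes there.

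Many of these promoters are shared. A coding gene with a TSS on the opposite strand within 1000 bp upstream was found for 37 of the 107 genes, 34.6%, against 11% of all coding genes. Genes with such a partner were bound in 23 of 37 cases in replicate 2 (62.2%), against 55.8% of all coding genes with a partner, and in 7 of 37 in replicate 1 (18.9%), against 30.2%. Genes without a partner were bound in 32 of 70 cases in replicate 2 (45.7%), against 27.2% of all coding genes without, and in 9 of 70 in replicate 1 (12.9%), against 13.9%. Of these 4 shares, only that of genes without a partner in replicate 2 had an interval (34.6 to 57.3%) that did not include its background. In replicate 2, the strongest peak overlapped the window of another coding gene at 24 of 55 bound genes and was closer to a TSS of the other gene at 8 of 55. In replicate 1 these were 7 and 4 of 16. The same counts were not made for all bound coding genes, so whether they are unusual cannot be judged.

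The base content of the promoters was compared next. From 250 bp before to 50 bp after the TSS, the median GC content was 58% for genes bound in replicate 2 and 55.8% for the others, against 61.3% and 53% among all coding genes. The median ratio of observed to expected CpG was 0.831 and 0.734, against 0.759 and 0.378 among all coding genes. Even the respiratory chain genes without a peak in replicate 2 thus had a CpG ratio above the median of all coding genes, 0.556.

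All coding genes were divided into 4 classes of near equal size by GC content, with bounds at 47.7%, 56% and 64%. In replicate 2 the respiratory chain genes were bound in 3 of 14 cases in the lowest class (21.4%), against 9.5% of all coding genes, and in 19 of 34 in the next (55.9%), against 24.2%. Above 56% GC they were bound in 22 of 45 cases (48.9%), against 40.9%, and in the highest class in 11 of 14 (78.6%), against 46.5%. The Wilson intervals lay above the background in the class from 47.7% to 56% (39.5 to 71.1%) and in the highest class (52.4 to 92.4%), and included it in the lowest class (7.57 to 47.6%) and from 56% to 64% (35 to 63%). In replicate 1 the shares from the lowest class up were 7.14%, 17.6%, 13.3% and 21.4%, against 4.67%, 11.5%, 21.1% and 25.4%, and the interval of each class included its background.

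A gene with more annotated TSSs has more windows. Among genes with a single TSS, 5 of 17 were bound in replicate 2 (29.4%), against 13.6% of such coding genes, and 1 of 17 in replicate 1 (5.88%), against 6.62%. With 2 to 3 TSSs the shares in replicates 1 and 2 were 21.9% and 43.8%, against 12% and 22.7%. With 4 to 6 they were 13.2% and 63.2%, against 20.5% and 38.8%, and with 7 or more 15% and 60%, against 25.1% and 49.8%. In replicate 2 the intervals lay above the background with 2 to 3 TSSs (28.2 to 60.7%) and 4 to 6 TSSs (47.3 to 76.6%), and included it with 1 TSS (13.3 to 53.1%) and with 7 or more (38.7 to 78.1%). In replicate 1 the interval of each class included its background.

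Motifs of known regulators were then searched in the same window, from 250 bp before to 50 bp after the TSS, on both strands. NRF1 motifs were present in 20 of 107 respiratory chain promoters, 18.7%, against 6.1% of all coding promoters. The ETS motif CCGGAAGT was present in 11, 10.3%, against 5.01%, and the YY1 motif AAGATGGCG in 6, 5.61%, against 1.85%. CCAAT was present in 38, 35.5%, against 38.6%, and the SP motif GGGGCGGGG in 11, 10.3%, against 15.4%. A match is a description of the letters, not of a bound factor.

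Among respiratory chain genes, 10 of 20 with the NRF1 motif were bound in replicate 2 (50%) and 45 of 87 without it (51.7%). Among all coding genes, 53.5% of those with the motif and 28.9% of those without it were bound in replicate 2. In replicate 1 the shares for the respiratory chain genes were 4 of 20 (20%) and 12 of 87 (13.8%), against 25.9% and 15% of all coding genes. For the ETS motif, 4 of 11 genes with it were bound in replicate 2 (36.4%) and 51 of 96 without it (53.1%), and for YY1 2 of 6 (33.3%) and 53 of 101 (52.5%). Among all coding genes the order was the opposite, with 45.4% and 29.6% for ETS and 47.7% and 30% for YY1. With CCAAT, 22 of 38 respiratory chain genes were bound (57.9%) and without it 33 of 69 (47.8%), against 32.4% and 29.1% of all coding genes. With the SP motif, 7 of 11 respiratory chain genes were bound in replicate 2 (63.6%) and without it 48 of 96 (50%), against 44.4% and 27.8% of all coding genes. In replicate 1 the SP motif was held by 4 of the 16 bound genes, which made 4 of 11 genes with it (36.4%) and 12 of 96 without it (12.5%), against 25.4% and 13.9%. The numbers of genes with a motif are small, and the differences were not tested.

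**Figure D5:**
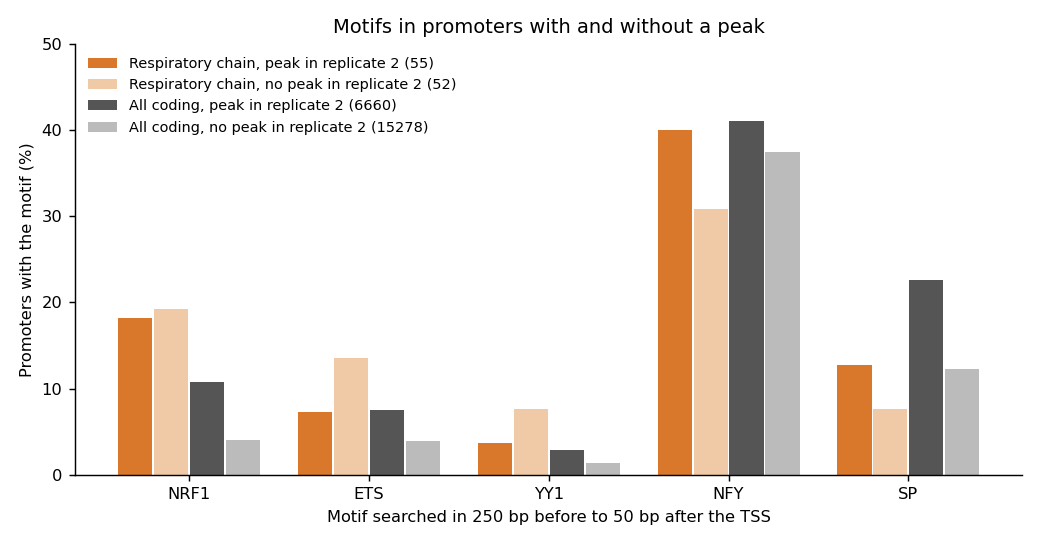
Percent of promoters with each motif (vertical axis, from 0) for respiratory chain genes with (55) and without (52) a peak in replicate 2 and for all coding genes with (6660) and without (15278) such a peak. NRF1 motifs are found in 18.2% and 19.2% of the respiratory chain promoters with and without a peak, and in 10.8% and 4.08% of all coding promoters.

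Genes that serve the respiratory chain under other symbols were counted from a list by function. Of 60 such genes, 18 were bound in replicate 1 (30%, 19.9 to 42.5%), 36 in replicate 2 (60%, 47.4 to 71.4%) and 16 in both (26.7%, 17.1 to 39%). All 3 intervals lay above the shares of all coding genes, 15.7%, 30.4% and 12%, and they overlap those of the respiratory chain genes. This was not tested. Of 13 genes of the synthesis of ubiquinone, the electron carrier between complexes I, II and III, 7 were bound in both replicates (53.8%, 29.1 to 76.8%), an interval above that of the respiratory chain genes (7.96 to 20.8%), though the difference was not tested. These were Pdss1 (scores 58 and 66), Pdss2 (35 and 38), Coq3 (35 and 82), Coq6 (62 and 53), Coq7 (59 and 155), Coq8b (21 and 59) and Coq10b (23 and 56). Coq2 and Coq8a were bound in replicate 2 only, and Coq4, Coq5, Coq9 and Coq10a in neither.

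Of 5 genes of mitochondrial transcription, 3 were bound in both (60%, 23.1 to 88.2%), against 12% of all coding genes. These were Tfam, which packages mitochondrial DNA and starts its transcription (scores 43 and 85), Tfb1m (77 and 105) and Tfb2m (113 and 110), while the polymerase gene Polrmt and Mterf1a had no peak. Somatic cytochrome c, Cycs, was bound in both (44 and 42), its testis form Cyct in neither, and Cyc1, the cytochrome of complex III, in replicate 2 (score 14). Among the nuclear regulators, Gabpa was bound in both (23 and 48) by the peaks it shares with Atp5j, Nrf1, Gabpb1, Yy1 and Pprc1 in replicate 2 only, Esrra in replicate 1 only (48), and Ppargc1a and Ppargc1b in neither.

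Among assembly factors with other symbols, Timmdc1 (29 and 31) and Tmem126b (75 and 116) of complex I and Coa7 (165 and 93) and Lrpprc (17 and 53) of complex IV were bound in both replicates. These made 2 of 8 listed for complex I (25%) and 2 of 14 for complex IV (14.3%), against 12% of all coding genes. For complex III it was 0 of 6 and for ATP synthase 0 of 3. The intervals of these 4 groups included the 12%. Replicate 2 alone had peaks at Foxred1, Tmem186, Bcs1l, Ttc19, Uqcc1, Surf1, Pet117, Coa4, Coa5, Cmc2, Atpaf1, Atpaf2 and Tmem70, and replicate 1 alone at Sco1. No peak was found at Nubpl, Acad9, Ecsit, Tmem126a, Lyrm7, Uqcc2, Uqcc3, Sco2, Pet100, Coa3, Coa6, Cmc1 and Taco1.

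Of the lists most alike in use across cells, the 78 mitochondrial ribosomal protein genes were bound in 23.1% of cases in replicate 1 (15.1 to 33.6%) and 50% in replicate 2 (39.2 to 60.8%). The 40 proteasome subunit genes gave 22.5% (12.3 to 37.5%) and 45% (30.7 to 60.2%), and the 86 cytosolic ribosomal protein genes 10.5% (5.6 to 18.7%) and 25.6% (17.5 to 35.7%). All coding genes gave 15.7% and 30.4%, values that these intervals include except in replicate 2 for the mitochondrial ribosomal and proteasome genes, which lay above. In replicate 2 the respiratory chain genes were thus close to the mitochondrial ribosomal and proteasome genes, and in replicate 1 they lay between those and the cytosolic ribosomal genes, with overlapping intervals. The ratio of the share in replicate 2 to that in replicate 1 was 3.44 for the respiratory chain genes and 1.93 for all coding genes.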

How the data were processed

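Peaks of SRCAP-YPet in 2 CUT&Tag replicates were analysed. The authors deposited 1 list per sample with chromosome, start, end, name and a peak score. The processing notes of the submitters name STAR, Picard and MACS2 and the builds mm10 and dm6. The study describes unique alignments, duplicate removal, downsampling by Drosophila reads, peak calling on paired fragments and removal of blacklisted regions in a common section on ChIP-seq and CUT&Tag, not for CUT&Tag apart. The reporting summary of the study lists a general MACS2 call that sets an input against each sample, and which library served for CUT&Tag is not given in the sources used here. The minimum score of 13 fits 10 times the −log10 of a q of 0.05 cut to a whole number. Since a q-value moves with depth, a peak near the threshold in a library can be missed in a shallower one.

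Genes and TSSs were those of GENCODE M21, with all transcripts of a gene. Sequence came from GRCm38.p6 (NCBI), and the 60 further pathway genes were matched by symbol, all of them found. Motifs, GC content and CpG ratios were taken at the TSS of the principal transcript (APPRIS) that starts farthest upstream. For each gene the strongest peak in the window was used. Values in full were given for the 10 genes bound in both replicates with the best lower rank, the 5 strongest genes of each replicate alone (2 existed in replicate 1), core subunits and tissue-restricted paralogs. Some items are not reported here. The genes and lists were chosen with earlier results of these data known. No test was made, since 1 group of 2 lists allows none between conditions, and genes are not replicates. Shares have 95% Wilson intervals (scipy). The code was tested on simulated data. Python 3.11.15, scipy 1.17.1, pysam 0.24.0, samtools 1.23.1 and matplotlib 3.10.9 were used. Alternatives covered the window, the overlap rule, the score, list length, transcripts, repeats, shared promoters, chromosome 8 and the gene list.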

Additional observations from a re-analysis of the deposited data

Results flagged for a closer look

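Peaks on the mitochondrial chromosome could not mark any gene above as bound, since only nuclear genes were used. They did count in the list lengths, in the ranks within a list and in the cuts to the strongest peaks. There were 6 such peaks in replicate 1 and 6 in replicate 2. They are listed because they lie outside the main measurement, and a count of peaks alone says nothing of SRCAP at these regions. In each list they overlapped 6 of the 13 protein-coding genes of mitochondrial DNA, all of them genes of the respiratory chain, namely mt-Nd1, mt-Nd2, mt-Co1, mt-Nd4, mt-Nd5 and mt-Cytb. The remaining peak of each list touched no coding gene. The lowest and highest scores were 182 and 1055 in replicate 1, and in replicate 2 they were 222 and 1047, above the highest score of any nuclear respiratory chain gene, 133. The methods of the study describe removing reads outside the autosomes and sex chromosomes, and these peaks show that the lists still hold mitochondrial regions. No control library was analysed here.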

How the results depend on the processing

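Across 28 results and 110 alternative values, 93 stayed within the 95% interval of a share or the spread of a value and 17 moved past it. Some of the 93 could not have moved. No strongest peak of a respiratory chain gene was marked as repeat over at least 50% of its length. Dropping such peaks could therefore change no share of these genes. The ratio of the share of respiratory chain genes to that of all coding genes ranged from 0.889 to 1.15 in replicate 1, from 1.5 to 1.95 in replicate 2 and from 0.964 to 1.34 for both replicates, over 13 alternatives each. The shares themselves fell when fewer peaks could count, by the construction of the alternative. With a TSS inside the peak, 40.2% were bound in replicate 2, against 20.6% of all coding genes. With the lists at equal length, 32.7% were bound in replicate 2, against 19.2%, and 34.8% of complex I. With a score of at least 50, 3.74% were bound in replicate 1, 19.6% in replicate 2 and 3.74% in both, against 4.21%, 13.1% and 2.99% of all coding genes. By complex, this threshold left 2.17% of complex I in replicate 1 and in both, and 21.7% in replicate 2. It left 3.7% of complex IV in replicate 1 and in both, and 14.8% in replicate 2. It left 5.56% of complex V in replicate 1 and in both, and 11.1% in replicate 2, and it left 0% of complex II in replicate 2. The 4 genes then bound in both were among the 14 above. CCAAT was found in 50.5% of promoters, against 57.6% of all coding promoters, when the window ran from 500 bp before to 100 bp after the TSS.

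Measured to the TSS of principal transcripts only, peak midpoints were a median of 147.5 bp away in replicate 1, and 147 bp away in replicate 2, against 198 and 200 bp for all bound coding genes. Without replicate 1 the mean share was 51.4% and without replicate 2 it was 15%, the values of the single lists. Both are counted among the 93 values that stayed. With 2 replicates a single value always lies within the SD of their mean, so this is no sign of stability. No paired analysis was possible because both samples belong to a single group. Depth is unknown, which limits every statement on a gene bound in 1 replicate only.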

Other observations

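Coa7, a complex IV assembly factor, had the highest score of the 60 further pathway genes in replicate 1, 165, and Coq7, a hydroxylase of ubiquinone synthesis, the highest in replicate 2, 155. Both lay above every nuclear respiratory chain gene of the same list, where the highest scores were 87 and 133.

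Sdha had 3 NRF1 motifs between -58 and 31 from the TSS and a peak in replicate 2 only, while Ndufs5, Ndufs7, Cox17, Atp5h, Atp5k, Atp5mpl, Atp5g3, Sdhaf4, Sdhd and Cox6a1 held the motif and had no peak in either list. These 10 genes make up the group with the motif and without a peak.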
